A study of Mus musculus with 20 samples.

Results

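Tarm1 and 8 further receptors of the paired immune receptor families were followed in liver macrophages: Pirb, Sirpa, Cd300a, Cd300lf, Cd300ld, Trem1, Trem3 and Treml2. These 9 genes were taken by symbol from the 59311 rows of the deposited expression table. The set was chosen by the measured level of Tarm1, which is among the transcripts most enriched in Ly6Chi cells, so the comparison of the subsets is given for these 9 genes as a description, without a test. RNA had been sequenced from Ly6Chi and Ly6Clo monocyte-derived macrophages (MoMac) of 10 male C57BL/6 mice (C57BL/6J in the study's methods), aged 10 to 12 weeks, giving 20 libraries of bulk RNA. Every mouse had fibrosis from carbon tetrachloride (CCl4), injected at 0.6 ml/kg on 2 days a week for 4 weeks, and no mouse without CCl4 was among these samples. Mice 11 to 15 received vehicle (1% DMSO), and mice 16 to 20 received Ac-6-FP at 0.25 mg/kg, a ligand of MR1 that blocks the activation of mucosal-associated invariant T (MAIT) cells. Injections started before the last CCl4 dose and cells were taken 2 days after it. The cells were sorted as CD11b and F4/80 positive and as CD3, CD11c and Ly6G negative, and then by Ly6C, so each of the 4 groups held 5 mice and each mouse gave a library of both subsets.

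Paired receptors are surface proteins of myeloid cells that come in inhibitory and activating forms with similar outer domains. Inhibitory members carry tyrosine motifs in their tails that recruit the phosphatases SHP-1 and SHP-2, whereas activating members have short tails and signal through adaptors such as DAP12 (Tyrobp) and the Fc receptor gamma chain (Fcer1g). In monocytes and macrophages the balance of these inputs sets how readily a cell releases cytokines or engulfs a target.

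The values are normalized counts, read counts per gene divided by a size factor per library and not by gene length, so levels are compared between libraries of the same gene only. Reads on genes ranged from 5693049 to 18682437 per library. The Ly6Clo library of vehicle mouse 13 was the smallest and held only 5343 genes above 0, against 9017 to 15766 in the others, and receptor estimates that changed sign or moved by over 1.5 times without mouse 13 are given both ways. The sort was visible in Ly6c2, which encodes Ly6C (7403 ± 1691 normalized counts in Ly6Chi and 688 ± 198 in Ly6Clo; SD, n = 10), and the 6 macrophage markers Itgam, Adgre1, Csf1r, Cd68, Fcgr1 and Lyz2 (a row shared with Lyz1) were measured in all 4 groups. Genes of other cells were also present, mainly in Ly6Clo. The summed level of 6 T and NK cell markers ran from 0 to 589 in Ly6Chi libraries and from 22013 to 49080 in Ly6Clo libraries, carried by Nkg7, Ncr1 and Klrb1c, with Cd3e at 0 in 3 of the 4 groups. The sum of 13 neutrophil markers ran from 11065 to 20495 in Ly6Chi and from 10463 to 136970 in Ly6Clo, and 5 of them (Camp, Ngp, Retnlg, Mmp9 and Cxcr2) were higher in Ly6Clo while Mmp8, Elane and Mpo were higher in Ly6Chi (limma, adjusted p under 0.05). Itgax, which encodes the CD11c excluded by the sort, was at 0 in all Ly6Chi libraries and averaged 1640 ± 992 in Ly6Clo (SD, n = 10). Other lists also held genes higher in Ly6Clo and none higher in Ly6Chi (limma, adjusted p under 0.05). These were Itgax and Flt3 of 6 dendritic cell markers (sums of 0 to 358 in Ly6Chi and 261 to 3540 in Ly6Clo), Cd79a of 5 B cell markers (80.2 to 743 and 0 to 1131) and Marco of 5 Kupffer cell markers (0 to 246 and 0 to 808). They were also Apoa1 and Apoa2 of 6 hepatocyte markers (604 to 1590 and 1968 to 4283) and Clec4g of 8 endothelial and stellate markers (214 to 1034 and 4.17 to 4488). The part of such cells in the receptor values was not tested.

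The receptors separated into 1 gene of Ly6Chi cells, 1 gene of Ly6Clo cells and 7 whose ranges overlapped between the subsets. Tarm1, an activating receptor that pairs with the Fc receptor gamma chain, averaged 449 normalized counts in Ly6Chi and 19.2 in Ly6Clo. Cd300ld, an activating-type receptor of the CD300 family that also uses the gamma chain, went the other way, with 1922 in Ly6Chi and 14670 in Ly6Clo. For these 2 of 9 genes the 10 Ly6Chi and 10 Ly6Clo libraries did not overlap, as was the case for 1.4% of all 17248 genes tested. Since this contrast chose the set, nothing is read from that count.

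The sequences just upstream of these 2 genes are shown because the receptors lie on opposite sides of the sort. Each is the stretch of 250 bases before the RefSeq transcription start in GRCm38.p6, on the minus strand, and capitals mark AGGAAGT, a motif bound by the macrophage factor PU.1, searched on both strands. The Tarm1 window is chr7:3502625-3502874 and the Cd300ld window is chr11:114989887-114990136.
Tarm1: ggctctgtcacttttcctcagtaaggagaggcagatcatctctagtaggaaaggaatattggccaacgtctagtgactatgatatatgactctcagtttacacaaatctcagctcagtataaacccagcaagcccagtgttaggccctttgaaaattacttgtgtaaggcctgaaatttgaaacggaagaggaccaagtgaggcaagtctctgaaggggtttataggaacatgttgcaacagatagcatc
Cd300ld: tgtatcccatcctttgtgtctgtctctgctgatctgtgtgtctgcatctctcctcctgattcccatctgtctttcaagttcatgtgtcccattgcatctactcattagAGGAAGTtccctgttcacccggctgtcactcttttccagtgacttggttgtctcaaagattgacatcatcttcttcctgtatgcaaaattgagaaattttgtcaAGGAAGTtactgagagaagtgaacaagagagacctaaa
The Cd300ld window held AGGAAGT at 2 places, which begin 142 and 38 bases before the RefSeq start. The Cd300ld row as counted reaches chr11:114989922, inside this window, so the 2 sources place the start differently. The last bases of the window, with part of the second match, fall inside the counted gene. The Tarm1 window held neither this motif nor TTGCNNAA, a short form of the C/EBP site. Windows were found for 6 of the 9 genes. AGGAAGT occurred in 3 of them (Pirb, Cd300ld and Trem1) and in 7.69% of all 32851 promoter windows, and TTGCNNAA occurred in 1 (Cd300a) and in 9.56% of all windows. Sirpa, Trem3 and Treml2 had no window. A match describes these letters only.

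Tarm1 (GSMG0035413, mm10 chr7:3486500-3502624, minus strand) lies in the leukocyte receptor complex near Pirb. Its Ly6Chi values in vehicle mice 11 to 15 were 696, 1192, 446, 245 and 308 normalized counts. In the Ly6Chi cells of Ac-6-FP mice 16 to 20 they were 158, 666, 177, 211 and 387. In Ly6Clo cells Tarm1 was listed at 35.0 in vehicle mouse 11 and at 0 in vehicle mice 12 to 15. The Ly6Clo cells of Ac-6-FP mice 16 to 20 held 27.4, 26.9, 0, 38.6 and 64.0. Every Ly6Chi library was therefore above every Ly6Clo library, and the transcript was found in 1 of 5 vehicle and 4 of 5 Ac-6-FP libraries of Ly6Clo cells. The 5 Ly6Clo libraries at 0 held 5343 to 13527 genes above 0, and the 5 with Tarm1 held 13481 to 15766. A value of 0 allows up to 3 reads, which is 1.87 to 6.26 normalized counts depending on the library. Within the mouse, Tarm1 was higher in Ly6Chi in 10 of 10 mice, by 5.91 ± 2.95 on the log2(normalized count + 1) scale (SD, n = 10), and by 5.58 over the 9 mice other than mouse 13. The size of this difference depends on the added count where Ly6Clo is at 0, and it ran from 4.13 with 10 added to 7.58 with 0.1 added. On the linear scale the mean was 23.4 times higher in Ly6Chi. In bulk RNA, fewer cells that carry a transcript and less transcript per cell cannot be told apart.

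**Figure D1:**
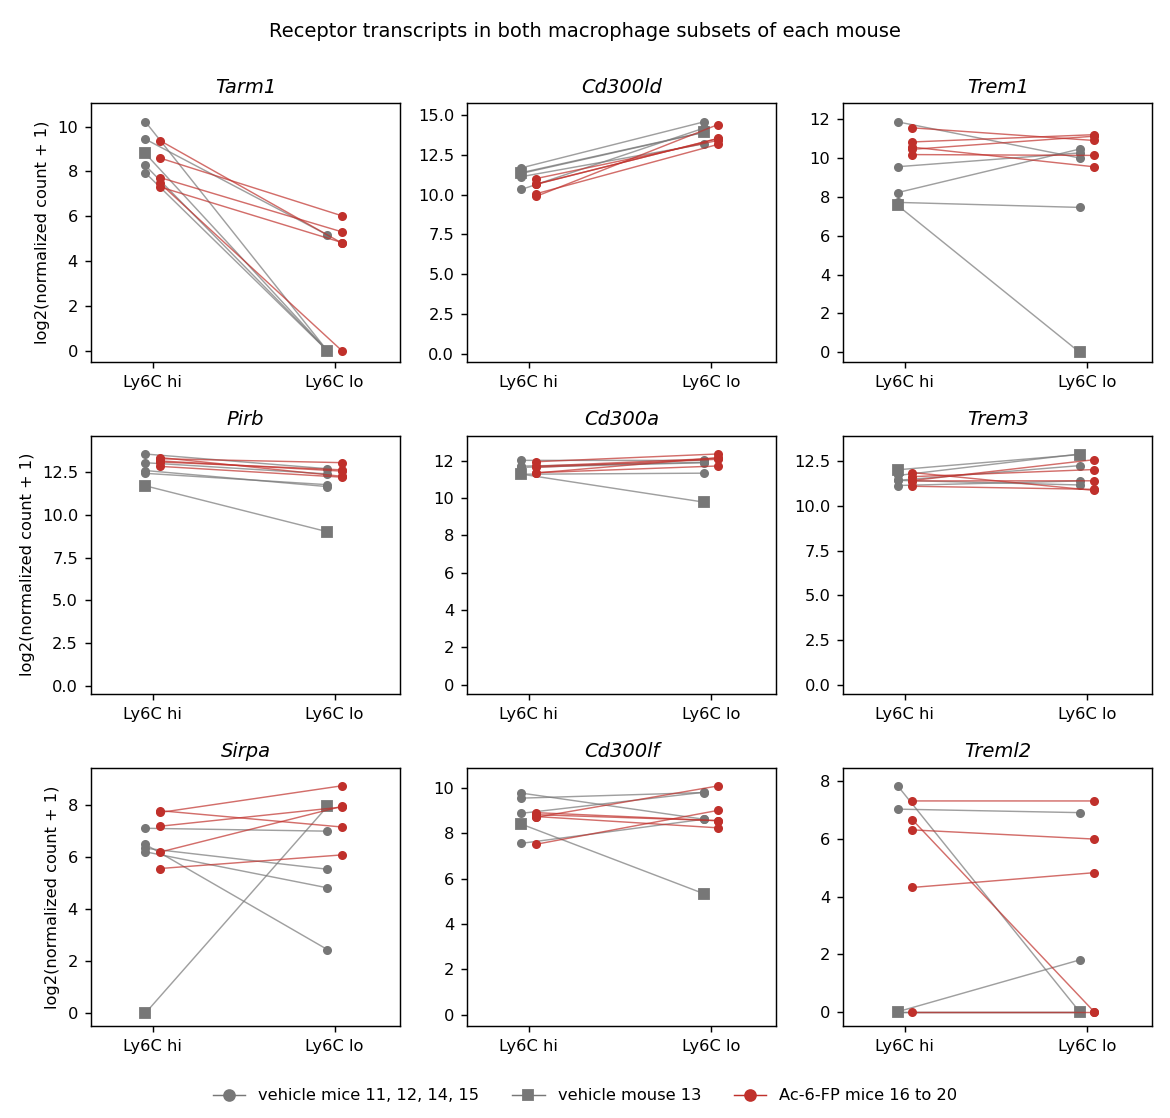
Level of each of the 9 receptors in the Ly6Chi and Ly6Clo library of every mouse, as log2(normalized count + 1) on the y axis, with a line joining the 2 libraries of a mouse (grey, vehicle; red, Ac-6-FP; squares, vehicle mouse 13). All lines fall from left to right for Tarm1 and Pirb and rise for Cd300ld, while those of Sirpa, Trem1 and Treml2 cross.

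The genes whose level most resembled that of Tarm1 over the 20 libraries, by Spearman correlation of log2 values, were Aoah (0.9), Kmt5a (0.899), Bub1 (0.885), Gm14548 (0.88) and Gm14005 (0.874). Aoah encodes acyloxyacyl hydrolase, which inactivates bacterial lipopolysaccharide, Kmt5a a histone H4 methyltransferase and Bub1 a kinase of the mitotic checkpoint. All 5 were higher on average in Ly6Chi than in Ly6Clo, and within the 10 Ly6Chi libraries alone their correlations with Tarm1 were lower, from 0.333 to 0.697. The libraries share mice and differ in depth, so these are descriptions. Among the other receptors, rho with Tarm1 was 0.58 for Pirb and -0.773 for Cd300ld over the 20 libraries, and -0.152 and 0.309 within the 10 Ly6Chi libraries.

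Cd300ld (GSMG0007612, chr11:114982274-114989922, minus strand) was the receptor of the Ly6Clo subset. In Ly6Clo cells the vehicle mice 11 to 15 held 9233, 15323, 15189, 23996 and 18248 normalized counts, and the Ac-6-FP mice 16 to 20 held 11664, 11749.7, 10767, 21453 and 9067. The Ly6Chi cells held 2224, 2647, 2562, 3263 and 1277 in vehicle mice and 1609, 1591, 2046, 941 and 1057 in Ac-6-FP mice. The lowest Ly6Clo library was above the highest Ly6Chi library, and the difference Ly6Chi minus Ly6Clo was -2.96 ± 0.72 log2 (SD, n = 10), with 0 of 10 mice higher in Ly6Chi. The mean was 7.63 times higher in Ly6Clo. Close copies of this gene lie beside it in the mouse CD300 cluster, and reads could be split among them in the counting, so its level is uncertain to that extent.

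Pirb (GSMG0035420, chr7:3711409-3720391, minus strand), the inhibitory receptor for MHC class I, lay above its Ly6Clo value in the Ly6Chi cells of all 10 mice. Its Ly6Chi values were 12216, 5571, 3356, 6248 and 8581 normalized counts in vehicle mice and 7397, 8844, 10599, 10091 and 9226 in Ac-6-FP mice. Its Ly6Clo values were 6716, 3511, 518, 3247 and 5443 in vehicle mice and 4767, 6423, 4933, 8601 and 6091 in Ac-6-FP mice. The subsets overlapped between mice but not within one, and the difference was 0.89 ± 0.68 log2 (SD, n = 10), or 0.68 over the other 9 mice without mouse 13, whose Ly6Clo library gave the lowest value. Pirb shares sequence with the activating Pira genes, so the split of reads among them is uncertain.

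The other inhibitory receptors showed no common side. Sirpa (GSMG0021776, chr2:129592837-129632228, plus strand), which binds CD47 and restrains engulfment, varied widely. Its Ly6Chi values were 137, 72.8, 0, 88.9 and 80.1 normalized counts in vehicle mice and 219.8, 145, 46.3, 72.2 and 209 in Ac-6-FP mice. Its Ly6Clo values were 127, 27.3, 246, 4.45 and 45.4 in vehicle mice and 142, 242, 66.9, 247 and 428 in Ac-6-FP mice. Mouse 13 held 0 in Ly6Chi and the highest vehicle value in Ly6Clo. The mean difference Ly6Chi minus Ly6Clo was -0.50 ± 3.07 log2 (SD, n = 10), and it was 0.33 over the other 9 mice, so its sign rests on that mouse.

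Cd300a (GSMG0006094, chr11:114890041-114904628, plus strand), an inhibitory receptor for the phosphatidylserine and phosphatidylethanolamine of dying cells, ran close in both subsets. Its Ly6Chi values were 4146, 3348, 2485, 2479 and 3199 normalized counts in vehicle mice and 3332, 2596, 2623, 3942 and 3196 in Ac-6-FP mice. Its Ly6Clo values were 4137, 3851, 881, 2577 and 3798 in vehicle mice and 4472, 4597, 3367, 5259 and 4321 in Ac-6-FP mice. Ly6Clo was the higher subset in 8 of 10 mice, among them all 5 Ac-6-FP mice, with a mean difference of -0.15 ± 0.62 log2 (SD, n = 10), or -0.33 over the 9 mice other than mouse 13. Cd300lf (GSMG0007616, chr11:115116214-115133992, minus strand), an inhibitory receptor that also binds phosphatidylserine, ran from 182 to 873 in Ly6Chi and from 39.7 to 1088 in Ly6Clo, and was higher in Ly6Chi in 5 of 10 mice. Its mean difference was 0.02 ± 1.39 log2 (SD, n = 10) and -0.32 over the 9 mice other than mouse 13. Cd300lf lies inside Rab37, whose mean was 3.73 in Ly6Chi and 428 in Ly6Clo, and whether the counting used strand is not given in the sources used here.

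The TREM receptors signal through DAP12 in the case of Trem1, which amplifies inflammatory responses, and Trem3, its neighbour in the mouse. Trem1 (GSMG0016765, chr17:48232739-48246924, plus strand) held 3737, 298, 189, 209.8 and 752 normalized counts in the Ly6Chi cells of vehicle mice and 1160.3, 1398, 1514, 1821 and 3016 in those of Ac-6-FP mice. In Ly6Clo cells it held 1027, 1414, 0, 175 and 1232 in vehicle mice and 1126, 2238, 749.5, 2363 and 1919 in Ac-6-FP mice. Vehicle mouse 11 was far above the other vehicle mice in Ly6Chi, and mouse 13 was at 0 in Ly6Clo. The difference between subsets was 0.74 ± 2.65 log2 (SD, n = 10) and -0.02 over the 9 mice other than mouse 13.

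Trem3 (GSMG0016766, chr17:48247729-48258847, plus strand) was found in every library. It ran from 2169.9 to 4098 normalized counts in Ly6Chi and from 1844 to 7546 in Ly6Clo, and was higher in Ly6Clo in 7 of 10 mice. Treml2 (GSMG0016768, chr17:48299497-48312534, plus strand), a related receptor of myeloid and B cells, was at 0 in 9 of the 20 libraries. Its highest values were 229 in Ly6Chi and 159 in Ly6Clo, both ranges started at 0, and Ly6Chi was the higher subset in 5 mice and Ly6Clo in 2.

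**Figure D2:**
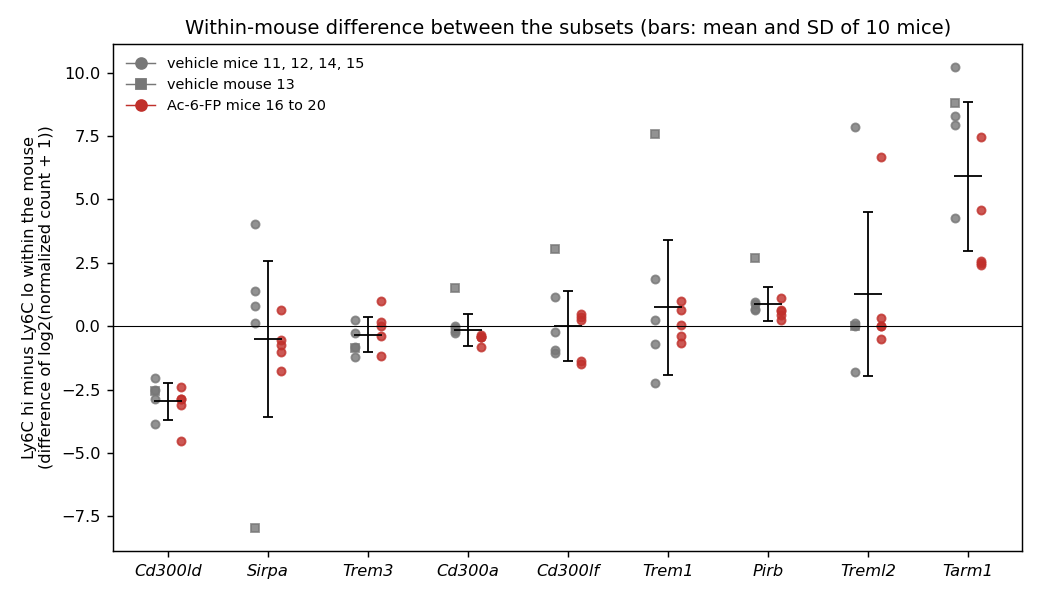
Difference Ly6Chi minus Ly6Clo within each of the 10 mice for the 9 receptors, in log2(normalized count + 1) on the y axis (grey, vehicle; red, Ac-6-FP; squares, vehicle mouse 13; black bars, mean and SD). All points lie below 0 for Cd300ld (mean -2.96) and above 0 for Pirb (0.89) and Tarm1 (5.91), and mouse 13 gives the point farthest from 0 for Pirb, Sirpa, Cd300a, Cd300lf and Trem1.

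With Ac-6-FP, none of the 9 receptors passed the test in either subset. In Ly6Chi cells limma called 0 of 9 at an adjusted p under 0.05, beside 0.0754% of all genes, and 1 of 9 had an unadjusted p under 0.05, beside 8.73% of all genes. In Ly6Clo cells it called 0 of 9, beside 0.0522% of all genes, and 0 of 9 had an unadjusted p under 0.05, beside 9.31%. The quasi-likelihood test of edgeR on recovered reads also called 0 of 9 in both. Vehicle and Ac-6-FP libraries overlapped for every receptor, while 1.35% of all genes in Ly6Chi and 1.5% in Ly6Clo did not overlap. Over all genes the values lay higher with Ac-6-FP, and the median change was 0.35 log2 over all genes and 0.01 over the receptors in Ly6Chi, and 0.91 and 1.04 in Ly6Clo. The number of genes above 0 moved with the treatment as well. In Ly6Chi it ran from 9017 to 14606 with vehicle (median 9749) and from 11096 to 15587 with Ac-6-FP (median 13622), and in Ly6Clo from 5343 to 15723 (median 10379) and from 11156 to 15766 (median 14084). With this number as a covariate, limma also called 0 of 9 receptors in each subset. Adjusted p over the 9 receptors ran from 0.544 to 1 in Ly6Chi and from 0.542 to 0.811 in Ly6Clo (limma). The 27 exact permutation tests made over these genes were each made again without mouse 13, and none is adjusted. The smallest p that 5 against 5 mice allow is 0.00794 (two-sided).

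In Ly6Chi cells the estimate for Tarm1 was -0.83 ± 0.54 log2 (SE, n = 5 per group; adjusted p = 0.672 by limma, exact permutation p = 0.175), from 577 ± 385 normalized counts with vehicle to 320 ± 214 with Ac-6-FP (SD). The groups overlapped, with the 2 highest vehicle mice above all Ac-6-FP mice, and the estimate was -0.51 without vehicle mouse 12. In Ly6Clo cells it was 3.16 ± 1.47 (adjusted p = 0.542 by limma, exact permutation p = 0.127), from 6.99 ± 15.6 to 31.4 ± 23.1. That estimate is mostly a contrast of libraries at 0 with libraries between 26.9 and 64.0, and it ran from 1.36 with 10 added to 5.13 with 0.1 added. Adjusted for genes detected per library, the estimates for Tarm1 were -1.07 in Ly6Chi and 1.5 in Ly6Clo.

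Cd300ld had the lowest unadjusted p in Ly6Chi cells (0.0376 by limma). Its mean was 2394 ± 729 with vehicle and 1449 ± 451 with Ac-6-FP, an estimate of -0.72 ± 0.29 log2 (SE, n = 5 per group; adjusted p = 0.544, exact permutation p = 0.0556). It was -0.39 in the fit adjusted for genes detected per library. In Ly6Clo cells the estimate was -0.34 ± 0.29 (adjusted p = 0.613 by limma), and from -0.54 without mouse 19 to -0.19 without mouse 14. The vehicle and Ac-6-FP mice overlapped in both subsets.

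Trem1 had estimates above 0 in both subsets, 1.73 ± 0.79 log2 in Ly6Chi (SE, n = 5 per group; adjusted p = 0.583 by limma, exact permutation p = 0.0952) and 2.95 ± 1.86 in Ly6Clo (adjusted p = 0.58 by limma, exact permutation p = 0.103). In Ly6Chi, 4 of 5 vehicle mice were below every Ac-6-FP mouse and mouse 11 was above them all. Without mouse 11 the Ly6Chi estimate was 2.45 (adjusted p = 0.0723 by limma), and without mouse 13 the Ly6Clo estimate was 1.04. Both were smallest in the fit that adjusted for genes detected per library, at 0.22 in Ly6Chi and 0.395 in Ly6Clo. Neutrophil marker sums, which bear on Trem1 since neutrophils carry it, had medians of 16650 with vehicle and 14573 with Ac-6-FP in Ly6Chi and of 40624 and 44988 in Ly6Clo. Of the 13 single markers, 10 had an estimate above 0 with Ac-6-FP in Ly6Chi (median 0.53 log2, against 0.35 over all genes) and 12 in Ly6Clo (median 2.74 log2, against 0.91), with 0 of 13 called in either, and their part in the Trem1 values was not tested. Sirpa in Ly6Chi had an estimate of 1.66 ± 1.33 log2 (SE; adjusted p = 0.687 by limma, exact permutation p = 0.286), which was 0.35 without mouse 13. Sirpa in Ly6Clo had an estimate of 2.02 ± 1.02 (adjusted p = 0.56 by limma, exact permutation p = 0.0794), which was 2.62 without mouse 13 (exact permutation p = 0.0317) and 1.25 without mouse 14. Over the alternatives that changed the processing, Sirpa ran from 0.434 to 2.32 in Ly6Chi and from 1.16 to 2.48 in Ly6Clo.

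Pirb and Cd300a had estimates of 1.04 ± 0.62 and 0.70 ± 0.41 log2 in Ly6Clo (SE, n = 5 per group), close to the median of all genes there (adjusted p = 0.566 and 0.564 by limma). Without mouse 13 they were 0.41 and 0.30. In Ly6Chi they were 0.48 ± 0.31 and 0.01 ± 0.18, or 0.24 and -0.06 without mouse 13. Adjusted for genes detected per library, Pirb was at 0.0925 in Ly6Chi and 0.105 in Ly6Clo, and Cd300a at 0.123 in Ly6Clo. Trem3 was estimated at -0.06 ± 0.19 in Ly6Chi and -0.55 ± 0.46 in Ly6Clo, Cd300lf at -0.29 ± 0.45 and 0.45 ± 0.83, and Treml2 at 1.95 ± 2.21 and 1.89 ± 1.95. Without mouse 13 these were 0.06 and -0.37 for Trem3, -0.40 and -0.32 for Cd300lf, and 1.20 and 1.45 for Treml2. Over all single mice left out, Trem3 in Ly6Clo ran from -0.81 (mouse 19) to -0.36 (mouse 14) and Cd300lf in Ly6Chi from -0.61 (mouse 14) to -0.04 (mouse 18). Treml2 ran from 1.2 to 3.18 in Ly6Chi and from 0.963 to 3.18 in Ly6Clo in the same way. Over the alternatives that changed the processing, Cd300lf in Ly6Chi ran from -0.961 to -0.171. The standard errors of Treml2 exceeded its estimates, so these values do not decide whether it changed.

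**Figure D3:**
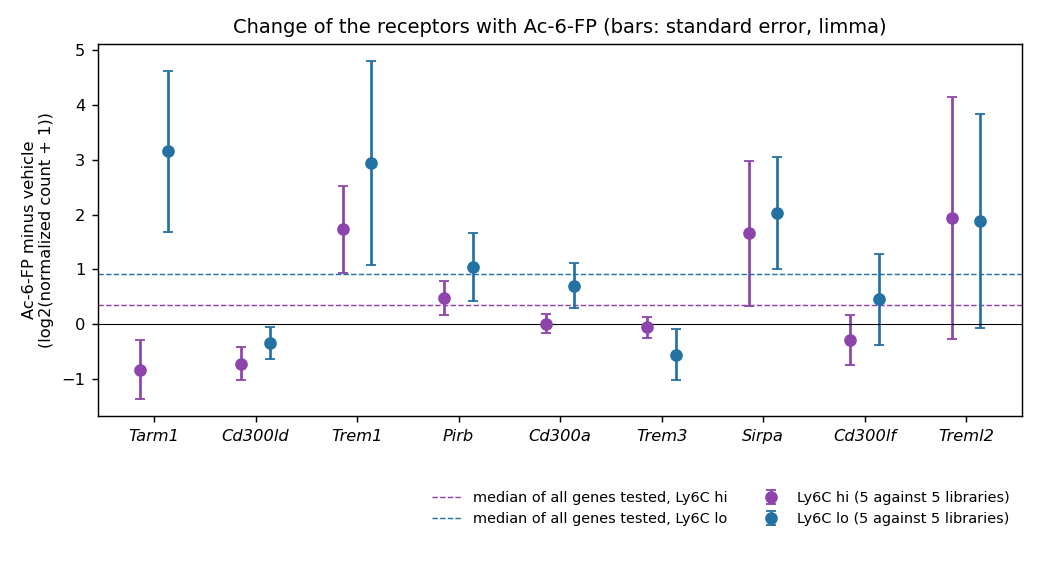
Difference Ac-6-FP minus vehicle of log2(normalized count + 1) for the 9 receptors in Ly6Chi (purple) and Ly6Clo (blue) cells, with standard errors from limma for 5 against 5 libraries and dashed lines at the median of all genes tested (0.35 and 0.91). None passed the test, and the estimates for Tarm1 lie on opposite sides of 0 (-0.83 and 3.16).

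Whether Ac-6-FP acted alike in both subsets was asked through the within-mouse difference, 5 against 5 mice. Limma called 0 of 9 receptors and 0% of all genes, and 1 of 9 receptors had an unadjusted p under 0.05, beside 4.87% of all genes. The quasi-likelihood test of edgeR also called 0. For Tarm1 the difference Ly6Chi minus Ly6Clo averaged 7.90 ± 2.21 log2 in vehicle mice and 3.91 ± 2.19 in Ac-6-FP mice (SD, n = 5), so the subsets lay closer together under Ac-6-FP by 3.99 ± 1.47 (SE; adjusted p = 0.83 by limma, exact permutation p = 0.0238). Without mouse 13 the exact permutation p was 0.0476, with an estimate of -3.77. The size depends on the added count, from -2.17 with 10 added to -5.97 with 0.1 added. The values overlapped between the treatments, since vehicle mouse 11 had Tarm1 in its Ly6Clo cells and Ac-6-FP mouse 18 did not.

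Cd300a was the receptor whose within-mouse differences did not overlap between the treatments, 1 of 9, beside 0.806% of all genes. In vehicle mice 11 to 15 the differences were 0.00, -0.20, 1.49, -0.06 and -0.25 log2, and in Ac-6-FP mice 16 to 20 they were -0.42, -0.82, -0.36, -0.42 and -0.43. The estimate was -0.69 ± 0.33 (SE, n = 5 per group; adjusted p = 0.83 by limma), and the exact permutation p of 0.00794 is the smallest this design gives. Without mouse 13, which had the difference of 1.49, the estimate was -0.37 and the exact permutation p was 0.0159, again the smallest possible. In Ac-6-FP mice Cd300a was thus higher in Ly6Clo than in Ly6Chi by 0.36 to 0.82 log2 in all 5. Sirpa gave -0.36 ± 1.90 with all mice (exact permutation p = 0.905) and -2.27 without mouse 13 (exact permutation p = 0.0317). The adjusted p of all 9 ran from 0.83 to 0.997 by limma. Under the criterion of the study's methods, a paired test over the 5 Ac-6-FP mice at an unadjusted p of at most 0.05 with a fold change of at least 1.5, 3 of 9 receptors passed (Tarm1, Cd300a and Trem1, all with the lower change in Ly6Chi), beside 24.3% of all genes in either direction and 16.3% in that one. That test leaves out the spread between vehicle mice. It was run here on the 17248 genes tested, whereas the study kept genes by a background expression level, so these shares are not the study's own. By limma the estimate for Trem1 was -1.22 ± 1.49 with all mice and 0.34 without mouse 13, so its direction rests on that mouse. Without mouse 13, Pirb went from -0.56 to -0.18, Cd300lf from -0.75 to -0.08 and Treml2 from 0.06 to -0.25.

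The wider families were read from a list of 37 related receptors, of which 30 had rows and 28 were tested between the subsets. By limma, 9 were higher in Ly6Clo and 1 was higher in Ly6Chi, beside 3.41% and 1.81% of all genes. Without mouse 13 there were 13 calls, 3 of them higher in Ly6Chi. The median over the 28 was -0.96 log2, with Cd200r3 at its bound as well, against -0.03 over all genes. The list was chosen with earlier results of these data known.

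Of the 5 CD300 relatives tested, Cd300e and Cd300c2 were higher in Ly6Clo, as was Cd300ld. The other 3 did not pass the test: Cd300c was at -2.45 ± 0.96, Cd300lb at -0.61 ± 0.17 and Cd300lg at 2.06 ± 0.74 log2 (Ly6Chi minus Ly6Clo, SE; adjusted p = 0.212, 0.0642 and 0.17 by limma). Cd300e, an activating receptor of nonclassical monocytes, averaged 21.8 ± 49.6 normalized counts in Ly6Chi, where 7 of 10 libraries were at 0, and 3995 ± 1882 in Ly6Clo (SD, n = 10; adjusted p = 4.94e-05 by limma). Cd300c2, another activating member, averaged 786 ± 294 and 3713 ± 1060 (-2.29 ± 0.28 log2, SE; adjusted p = 0.000434 by limma). In the TREM family Treml4, which binds dying cells and marks nonclassical monocytes, averaged 1042 ± 533 in Ly6Chi and 5814 ± 2281 in Ly6Clo (-2.57 ± 0.23 log2, SE; adjusted p = 3e-05 by limma). Its relatives Trem2 and Treml1 had estimates on the Ly6Chi side, 0.91 ± 0.39 and 1.77 ± 1.1 log2, and did not pass (SE, adjusted p = 0.255 and 0.447 by limma). For Cd300e, Cd300c2 and Treml4 every Ly6Clo library was above every Ly6Chi library, as was also the case for Cd200r3. Over all genes tested, 1.4% did not overlap, in either direction. These relatives had already passed the test of the same comparison, so nothing further is read from this.

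Lair1, Pilra and Siglecf, which are inhibitory, were higher in Ly6Clo. Other inhibitory relatives did not pass the test: Lilrb4a was at 0.66 ± 0.20, Siglece at -0.89 ± 0.31, Siglecg at -2.97 ± 1.21 and Cd200r1 at -1.82 ± 1.43 log2 (Ly6Chi minus Ly6Clo, SE; adjusted p = 0.0881, 0.154, 0.231 and 0.546 by limma). Lair1, the inhibitory collagen receptor, was at -1.56 ± 0.28 log2 and Pilra, an inhibitory receptor for sialylated proteins, at -1.04 ± 0.17 (SE; adjusted p = 0.00595 and 0.0026 by limma). Pilrb2, the activating partner of Pilra, was at -1.07 ± 0.22 (adjusted p = 0.0124 by limma, 0.00204 to 0.0822 over the alternatives, the highest in edgeR without mouse 15), and Sirpb1a, an activating relative of Sirpa, at -1.19 ± 0.20 (adjusted p = 0.00371 by limma). Cd200r3, a receptor known from basophils and mast cells, was at 0 in all 10 Ly6Chi libraries and averaged 647 ± 278 in Ly6Clo, at least 245.5-fold higher against 3 reads per library. Siglecf, known from eosinophils, was at 0 in 9 of 10 Ly6Chi libraries and averaged 360.2 ± 340.3 in Ly6Clo (adjusted p = 0.0041 by limma). The T and NK cell marker sums given above stand higher in the same Ly6Clo libraries, as do 5 of the neutrophil markers (-9.72 for Retnlg to -6.19 log2 for Cxcr2). The neutrophil markers Mmp8, Mpo and Elane went the other way (4.8, 6.5 and 8.8 log2). Single dendritic cell, B cell, Kupffer cell, hepatocyte and endothelial markers were also higher in Ly6Clo. The part of all these cells in the receptor differences was not tested.

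The row shared by Sirpb1c and a second locus (LOC100038947) was the 1 relative on the Ly6Chi side, at 6110.1 ± 1281 against 3718 ± 1449 normalized counts (0.80 ± 0.20 log2, SE; adjusted p = 0.0426 by limma). The call was lost in edgeR (adjusted p = 0.0514), with 0.1 added, with no filter and when any single mouse other than mouse 13 was left out (adjusted p from 0.0502 to 0.128). Next to Pirb, the activating Pira1 had an estimate of 2.27 ± 0.66 and the shared row of Pira2 and Pira6 of 1.94 ± 0.81, neither past the threshold (adjusted p = 0.0772 and 0.24 by limma). With Ac-6-FP, limma and edgeR each called 0 of the 28 relatives in Ly6Chi, in Ly6Clo and between the subsets, and 3, 2 and 0 of them had an unadjusted p under 0.05 by limma, beside 8.73%, 9.31% and 4.87% of all genes.

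**Figure D4:**
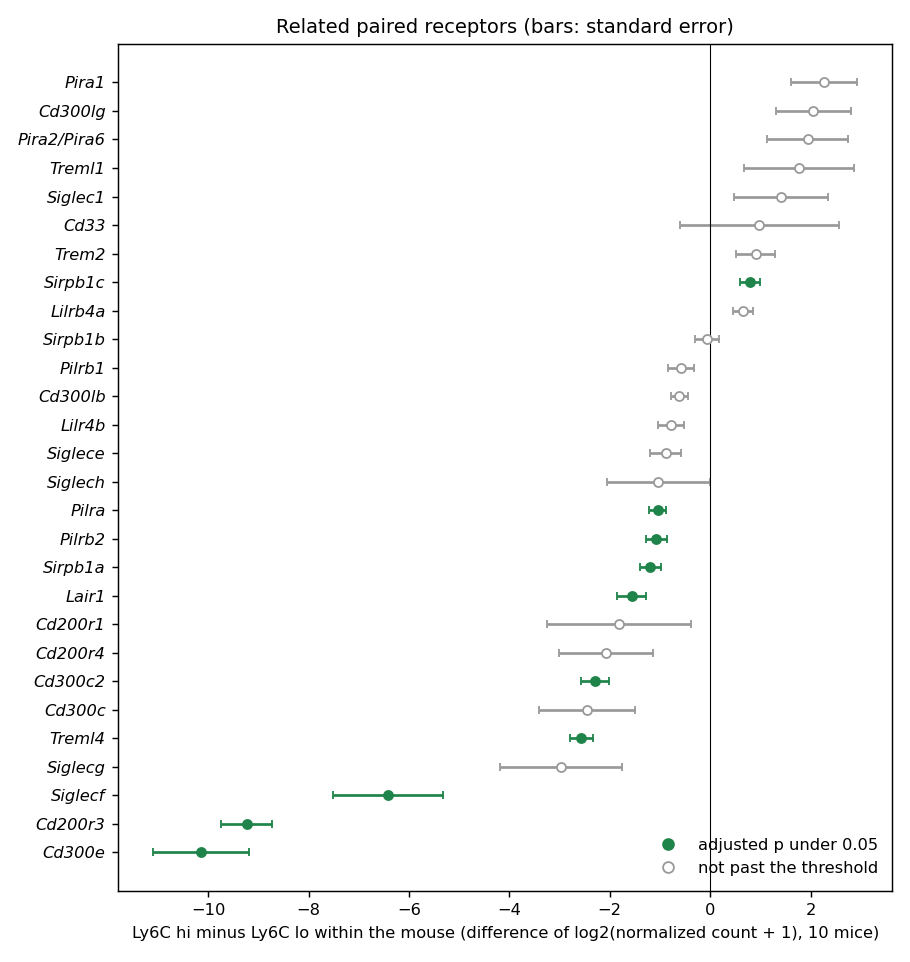
Difference Ly6Chi minus Ly6Clo (log2(normalized count + 1), mean of 10 mice) on the x axis for 28 related paired receptors, with standard errors from limma and filled green points for adjusted p under 0.05. Of the 10 filled points, 9 lie left of 0, from -1.04 to -10.1, and 1 (Sirpb1c, 0.80) lies to the right.

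Adaptors and ligands leaned to the Ly6Clo side where they differed. Of 15 adaptors and signalling genes, 2 passed the test between subsets, both higher in Ly6Clo, beside 3.41% of all genes in that direction: Fcer1g, the gamma chain partner of Tarm1 and Cd300ld, at -0.44 ± 0.08 log2, and Hcst, which encodes DAP10, at -1.26 ± 0.27 (SE; adjusted p = 0.00937 and 0.0191 by limma). Tyrobp, the adaptor of Trem1 and Trem3, had 22177 ± 3141 normalized counts in Ly6Chi and 21787 ± 4619 in Ly6Clo (SD, n = 10; adjusted p = 0.789 by limma). Of 6 ligands, 5 were higher in Ly6Clo, beside the same 3.41%. Both lists were chosen with earlier results of these data known, so neither count is read as an enrichment. Those of Pirb were B2m at -1.03 ± 0.03, H2-K1 at -1.54 ± 0.09 and H2-D1 at -0.71 ± 0.15 log2 (SE; adjusted p = 2.22e-08, 1.34e-06 and 0.0175 by limma). Pglyrp1, a reported ligand of Trem1 and a protein of neutrophil granules, was at -2.58 ± 0.24 (adjusted p = 4.13e-05 by limma), while Cd200 was at 0 in all Ly6Chi libraries and averaged 70.8 in Ly6Clo. Cd47, the ligand of Sirpa, was at -0.41 ± 0.27 (adjusted p = 0.465 by limma). The NK cell genes Nkg7, Ncr1 and Klrb1c (-8.97, -10.01 and -10.8 log2), whose cells also use DAP10, were higher in the same Ly6Clo libraries. So were 5 of the 13 neutrophil markers, while Mmp8, Elane and Mpo were higher in Ly6Chi. The part of such cells in these adaptor and ligand differences was not tested. With Ac-6-FP, limma and edgeR each called 0 of these 21 genes in Ly6Chi, in Ly6Clo and between the subsets, and 5, 7 and 6 of them had an unadjusted p under 0.05 by limma, beside 8.73%, 9.31% and 4.87% of all genes.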

How the data were processed

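RNA of sorted Ly6Chi and Ly6Clo MoMac from 10 mice was sequenced by the authors as low-input polyA libraries. Per the labels and methods, reads were mapped with STAR 2.4.0 to mm10, counted on FAST DB genes and scaled with DESeq2. The deposited values are a linear signal, the gene counts divided by the size factor of the library, and 99.998% of values above 0 were whole reads (tolerance 0.006). Nothing states whether strand was used. All 20 columns matched a labelled sample. The version of DESeq2 was not given in the sources used here.

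Members and lists were chosen with earlier results of these data known. Named genes are those of the lists, those past the threshold, defining markers and the 5 nearest to Tarm1. Genes with a mean of 10 or more in at least 1 of 4 groups (17248) were analysed as log2(normalized count + 1) with limma 3.58.1 in R 4.3.3, two-sided, Benjamini-Hochberg adjusted over all genes, threshold 0.05. Subsets were compared within the mouse, and Ac-6-FP with vehicle within each subset. The labels give each library a number, and both libraries of a number were taken to come from 1 mouse, as the study's paired test also does. The residuals of the same mouse had a median correlation of 0.0338 (0.00334 to 0.25), against -0.00496 for different mice of the same treatment. Exact permutation tests (scipy 1.17.1, Python 3.11.15, numpy 2.4.6, pandas 2.3.3) were two-sided. The quasi-likelihood test of edgeR 4.0.16 was run on recovered reads, also without mouse 15, a choice made after seeing the data. The scripts were tested on simulated data. Alternatives varied the pseudocount, filter, scaling, weights, a covariate for genes detected, the block and the mice. Reads carry no molecular identifiers, so the limit of 3 reads covers counting error only. Coordinates are those of the files (mm10), strands those of GENCODE release M21, and promoters those of RefSeq. The motifs were chosen after the sequences were seen.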

Additional observations from a re-analysis of the deposited data

Results flagged for a closer look

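In 36 groups of 5 libraries, 4 groups for each of the 9 receptors, 6 held a library whose gap to its neighbour exceeded 0.71 of the range of the group. Chance alone marks about 1 in 20 groups of normally distributed values. The rate was not computed for these counts, where a group with 4 libraries at 0 is marked by any value above 0. Vehicle mouse 11 accounted for 3 of them: Tarm1 at 34.95 normalized counts in Ly6Clo, where the other 4 vehicle libraries were at 0, Trem1 at 3737.39 in Ly6Chi and Treml2 at 119.56 in Ly6Clo. The others were in Ac-6-FP mice: Cd300lf at 182.2 in the Ly6Chi cells of mouse 18, Cd300lf at 1088.06 in the Ly6Clo cells of mouse 20 and Cd300ld at 21453.3 in the Ly6Clo cells of mouse 19.

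For 2 of the 9 receptors the exact permutation p of the change with Ac-6-FP between the subsets was under 0.05, unadjusted for the 9 tested. The share of all genes under that exact test was not computed. By limma, 1 of 9 had an unadjusted p under 0.05, beside 4.87% of all genes. Tarm1 had a difference of -3.99 log2 (exact permutation p = 0.0238) and Cd300a one of -0.691 (exact permutation p = 0.00794). Neither passed limma's adjustment over all genes (adjusted p = 0.83 for both). The direction of the Cd300a estimate was the same in all 10 fits that left out 1 mouse (-0.802 to -0.366), as was that of Tarm1 (-4.9 to -3.41). The size of the Tarm1 estimate depends on the added count, -2.17 with 10 added and -5.97 with 0.1 added.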

How the results depend on the processing

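No receptor was called with Ac-6-FP, in either subset or between them, under any alternative but the study's criterion. Applied to the 17248 genes tested here, which the study filtered differently, that criterion passed 3 of 9 between the subsets and 4185 genes in all. Without the replicate block, receptors called between the subsets stayed at 0, and 10 relatives differed between subsets, as in the paired fit (8 to 15 over all alternatives). The following estimates changed sign, none of them called. With genes detected as a covariate, Cd300a in Ly6Chi was -0.242, Trem3 in Ly6Chi 0.132, Treml2 in Ly6Chi -1.93 and in Ly6Clo -0.0854, Cd300lf in Ly6Clo -0.542 and Treml2 between subsets -0.14. In edgeR, Treml2 in Ly6Chi was -0.00366 and Cd300lf in Ly6Clo -0.0365 (-0.126 without mouse 15). With array weights, Cd300lf in Ly6Clo was -0.185 and Treml2 between subsets -0.23. With another pseudocount, Sirpa between subsets was 0.238 (0.1 added) and Treml2 -0.198 (10 added). Leaving out 1 mouse each gave -0.074 to 0.121 for Cd300a and -0.16 to 0.0589 for Trem3 in Ly6Chi, -0.32 (without mouse 13) to 0.796 for Cd300lf in Ly6Clo, and, between subsets, -2.27 to 0.728 for Sirpa, -2.11 to 0.34 (without mouse 13) for Trem1 and -1.28 to 1.72 for Treml2. The causes were not tested. Counts over all genes moved more: with Ac-6-FP, 0 to 133 in Ly6Chi (133 without mouse 11; 0 without mouse 12, 13 or 15) and 0 to 103 in Ly6Clo (103 without mouse 11; 0 without mouse 12, 14, 19 or 20), both 0 in edgeR; between subsets 0 to 4; and Ly6Chi against Ly6Clo 511 in edgeR (392 without mouse 15) and 1848 with the covariate, where 1097 were higher in Ly6Chi, against 312 of 900. Treml2 has no value at a filter of 100. A value of 0, which allows up to 3 reads, was found for Tarm1 in 5 of 10 Ly6Clo libraries and for Treml2 in 9 of 20 libraries.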
